A study of Homo sapiens with 6 samples.

Results

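HT29 is an established line of human colon adenocarcinoma cells, and methotrexate (MTX) is an antifolate drug that inhibits dihydrofolate reductase. The genes described here are 10 markers and regulators of the mesenchymal state, chosen by name with earlier results of these data known. These are the cytoskeletal and surface genes VIM, ACTA2 and CDH2, the matrix genes FN1 and TGFBI, and the transcription factors ZEB1, ZEB2, SNAI1, SNAI2 and TWIST1. They are 10 of 19775 genes that a probe set of the Affymetrix HG U133 PLUS 2.0 array names alone, and 27 of 54613 probe sets measure them. The 6 arrays carried RNA of 3 samples of HT29 cells sensitive to MTX, grown in Ham's F12 medium with fetal bovine serum, and of 3 samples of HT29 cells that had become resistant to 10 μM MTX. The resistant cells came from the same line by stepwise exposure to the drug and were kept in selective medium without glycine, hypoxanthine and thymidine, with dialyzed serum, so that resistance and medium cannot be told apart. No source used here says that the 3 samples of a group came from separate cultures, so the p-values rest on the spread among these samples alone, and that spread may be technical.

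Epithelial cells are held together by E-cadherin at their junctions and carry keratin filaments. In the epithelial-mesenchymal transition (EMT), factors of the SNAI, ZEB and TWIST families bind E-box sequences and repress E-cadherin and other junction genes, while vimentin filaments, N-cadherin and fibronectin increase. Growth factors of the TGF-beta family are well known inducers of this program. In colon tumors, vimentin, fibronectin and smooth muscle actin are abundant in the stroma and low in most carcinoma cells.

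Signals are given here as multiples of the median of their array (scaled signal), with 1 for the median itself. Of the 27 probe sets, 17 lay under 1 on all 6 arrays, and 4 of the 10 genes (ZEB1, ZEB2, SNAI2 and TWIST1) had no probe set that reached 1 on any array, which is called not detected here. CDH2, FN1 and SNAI1 reached 1 on at least 1 array but had a mean under 1 at every probe set, so they were not tested. The 3 genes with a probe set of mean signal at or above 1 were VIM, ACTA2 and TGFBI. Of these, VIM and ACTA2 were higher and TGFBI was lower in resistant cells at an adjusted p under 0.05 (limma, Benjamini-Hochberg over 26833 tested probe sets), where 29.0% of all tested probe sets passed, 9.52% as higher and 19.5% as lower. None of the 3 changed by 3-fold or more, which 3.45% of the tested probe sets did at that adjusted p. Over all tested probe sets the median log2 fold change, resistant over sensitive, was -0.12, and -0.02 after quantile normalization, so values relative to that median are given as well. Scaling also set the balance of the calls over the whole array, since 32.8% of them were higher in the scaling used here and 49.2% after quantile normalization.

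**Figure D1:**
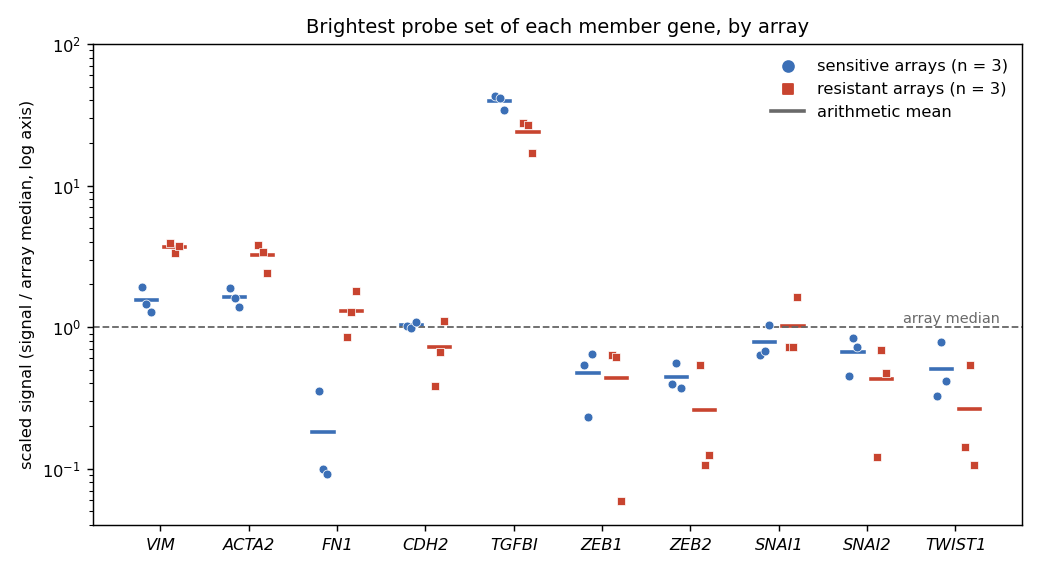
Scaled signal (log axis) of the brightest probe set of each of the 10 genes on the 3 sensitive arrays (blue circles) and 3 resistant arrays (red squares), with short lines at the arithmetic means and a dashed line at the array median of 1. VIM and ACTA2 lie above 1 on all arrays with no overlap between groups, TGFBI lies between 16.99 and 43.0, and ZEB1, ZEB2, SNAI2 and TWIST1 lie under 1 on every array.

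VIM encodes vimentin, the intermediate filament protein of mesenchymal cells. At its brighter probe set the scaled signal was 1.92, 1.45 and 1.28 in the sensitive samples and 3.92, 3.34 and 3.74 in the resistant samples. All 3 resistant arrays lay above all 3 sensitive arrays, and 42.3% of all tested probe sets showed no overlap between groups in one direction or the other. The means were 1.55 ± 0.330 and 3.67 ± 0.300 (SD, n = 3 each), and the log2 fold change was 1.26 (standard error 0.26, 95% interval 0.72 to 1.80, adjusted p = 0.00085 from limma), or 1.38 relative to all tested probe sets. This is 2.40-fold on the linear scale. The signal was low in both cell lines, at the 56.7th percentile of its array in the median sensitive sample and the 69.4th in the median resistant sample. Among tested probe sets with a mean scaled signal from 1 to under 4, 7.52% were higher in resistant cells. The other VIM probe set lay between 0.0301 and 0.547 with overlapping groups. With the mean of both probe sets the log2 fold change was 0.52 (adjusted p = 0.58 from limma). That mean weighs the dim probe set, under 1 on all arrays, as much as the brighter one, so it is a weak check. A two-group test with unequal variances also ended the call (adjusted p = 0.11). Among all tested probe sets that test called 81 higher, against 2554 in limma.

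ACTA2 encodes smooth muscle alpha-actin, a filament protein of smooth muscle and of activated fibroblasts. Its brightest probe set had scaled signals of 1.89, 1.59 and 1.38 in the sensitive samples and of 3.82, 3.41 and 2.40 in the resistant samples. The groups did not overlap, and resistant replicate 3 was nearest to the sensitive arrays. The means were 1.62 ± 0.257 and 3.21 ± 0.730 (SD, n = 3 each), with a log2 fold change of 0.97 (standard error 0.27, 95% interval 0.40 to 1.54, adjusted p = 0.010 from limma), or 1.09 relative to all. The log2 fold change was 0.83 without resistant replicate 1 and 0.91 without resistant replicate 2, and neither passed (adjusted p = 0.053 and 0.056 from limma). Actin genes are near-identical in their coding sequence, and the part of other actin transcripts in this signal was not tested. The gamma-actin of smooth muscle, ACTG2, was at 1.52 ± 0.497 and 1.56 ± 0.682 (SD, n = 3 each; log2 fold change 0.02, 95% interval -0.80 to 0.84). The remaining ACTA2 probe sets lay between 0.0451 and 0.722 with overlapping groups. Averaging all 3 probe sets gave a log2 fold change of 0.03 (adjusted p = 0.97 from limma). That average weighs the dim probe sets, under 1 on all arrays, as much as the brightest, so it is a weak check. Two-group tests with equal and unequal variances gave adjusted p = 0.084 and 0.14. Among all tested probe sets they called 826 and 81 higher, against 2554 in limma.

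TGFBI, a secreted matrix protein that TGF-beta induces, was the brightest of the 10 genes by far and went the opposite way. Its only probe set had scaled signals of 43.0, 41.6 and 34.1 in the sensitive samples and of 27.6, 26.9 and 16.99 in the resistant samples. Every resistant array lay under every sensitive array, and resistant replicate 3 was the lowest. The means were 39.5 ± 4.80 and 23.8 ± 5.93 (SD, n = 3 each), and the fitted log2 difference was -0.76 (standard error 0.17, 95% interval -1.12 to -0.39, adjusted p = 0.0024 from limma), or -0.64 relative to all. The gene stayed near the 93.5th and the 90.7th percentile of the arrays in the median sensitive and resistant sample. The share of tested probe sets called lower was 31.7% among those with a mean scaled signal from 16 to under 64, so a fall at this level was common on these arrays. Without any single array TGFBI lay between -0.88 and -0.53 and kept its call. Two-group tests with equal and unequal variances ended it (adjusted p = 0.14 and 0.21). Among all tested probe sets they called 1879 and 136 lower, against 5237 in limma, so most calls were lost there.

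The promoters of the genes that passed the test are shown because E-boxes (CANNTG on either strand) are the sequences that TWIST, SNAI and ZEB factors bind, SNAI and ZEB factors mainly at CACCTG. The sequences are from RefSeq (GRCh38.p14), 5′ to 3′ on the strand of the gene, and cover the 250 bases before a listed transcription start, with E-boxes in capitals. VIM is on the plus strand at chr10:17227991-17228240, ACTA2 on the minus strand at chr10:88952774-88953023 (the second of its listed starts), and TGFBI on the plus strand at chr5:136028738-136028987.
VIM: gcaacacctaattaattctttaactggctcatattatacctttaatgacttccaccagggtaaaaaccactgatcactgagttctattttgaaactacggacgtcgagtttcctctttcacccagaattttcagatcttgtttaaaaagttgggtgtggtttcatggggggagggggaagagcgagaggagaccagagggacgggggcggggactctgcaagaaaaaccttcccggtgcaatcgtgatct
ACTA2: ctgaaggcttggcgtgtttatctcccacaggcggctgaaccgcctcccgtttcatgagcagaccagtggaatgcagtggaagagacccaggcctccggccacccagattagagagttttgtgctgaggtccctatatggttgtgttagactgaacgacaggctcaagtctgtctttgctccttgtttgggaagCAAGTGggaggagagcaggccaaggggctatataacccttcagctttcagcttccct
TGFBI: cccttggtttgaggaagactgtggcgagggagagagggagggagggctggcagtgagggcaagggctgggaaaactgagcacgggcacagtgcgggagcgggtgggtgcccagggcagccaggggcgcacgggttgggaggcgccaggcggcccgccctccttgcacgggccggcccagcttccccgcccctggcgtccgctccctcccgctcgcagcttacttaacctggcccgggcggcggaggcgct
The ACTA2 window held 1 E-box, CAAGTG, which begins 57 bases before the start, and the windows of VIM and TGFBI held none. The other listed start of ACTA2 and the start of FN1 also held none, and that of ZEB2 held CACATG. Of the 7 listed starts of ZEB1, 4 had an E-box and 2 had CACCTG. Over all 35116 listed promoters, 61.8% of windows of this length had CANNTG and 17.5% had CACCTG. A match is a match of letters in this window and says nothing of binding in these cells.

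FN1 encodes fibronectin, a large matrix glycoprotein that integrins bind. None of its 7 probe sets had a mean scaled signal of 1, and the sensitive arrays were far below the median at most of them. At the brightest the scaled signal was 0.352, 0.1 and 0.0909 in the sensitive samples and 0.857, 1.27 and 1.80 in the resistant samples. At another it was 0.0915, 0.187 and 0.169 against 0.714, 0.994 and 1.25, and at one more it was 0.134, 0.0867 and 0.0974 against 1.29, 0.344 and 0.834. At these 3 of 7 probe sets every resistant array lay above every sensitive array, which 6.34% of all probe sets with a mean under 1 showed. The other 4 overlapped between groups, with the mean of the resistant arrays above that of the sensitive arrays at all 7. The probe sets of FN1 read the same RNA and are not independent of each other, and those with names ending in _x_at may also read other transcripts. With no filter on dim probe sets, 5 probe sets of the 10 genes were called higher (3.65% of all 54613 were) and 1 lower. The 5 were those of VIM and ACTA2 and these 3 of FN1, with log2 fold changes of 3.09, 2.76 and 2.78 in the order given above (adjusted p = 0.018, 0.027 and 0.048 from limma), against 0.529% of the probe sets with a mean under 1 called higher in that fit. The sizes of these changes rest on sensitive signals with no firm level.

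CDH2 encodes N-cadherin, the cadherin of mesenchymal and neural cells. Its brighter probe set had scaled signals of 1.02, 0.980 and 1.09 in the sensitive samples and of 0.383, 0.662 and 1.11 in the resistant samples. The groups overlapped, with resistant replicate 3 the highest of the 6 arrays and resistant replicate 1 the lowest. The other lay between 0.0260 and 0.226 on all arrays, also with overlapping groups, and its mean was 0.0762 in sensitive and 0.181 in resistant samples. Without the filter neither passed (adjusted p = 0.56 and 0.35 from limma). The means of the brighter and the dimmer probe set moved in opposite directions, and no change of N-cadherin RNA could be called at these signals.

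**Figure D2:**
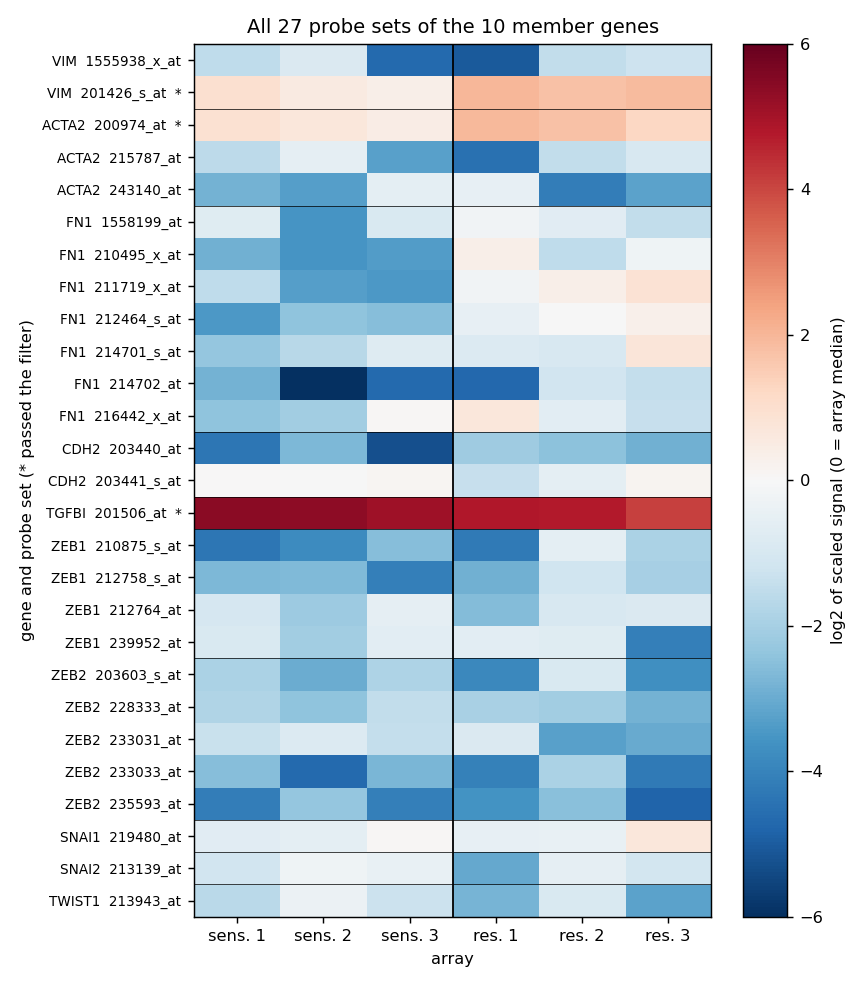
Log2 of the scaled signal (0 is the array median) of all 27 probe sets of the 10 genes, 1 row each, on the 3 sensitive and 3 resistant arrays, with the 3 probe sets that passed the filter marked by an asterisk. Most rows are blue, under the array median, on all arrays, while 3 FN1 rows pass from blue in sensitive to paler blue or red in resistant arrays.

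The 5 transcription factors were near or under the array median in both cell lines. Of the 72 values that their 12 probe sets gave on 6 arrays, 2 reached 1, both at SNAI1. SNAI1 (Snail), a zinc finger repressor of E-cadherin, had scaled signals of 0.634, 0.673 and 1.04 in the sensitive samples and of 0.722, 0.725 and 1.62 in the resistant samples at its single probe set. The groups overlapped, and replicate 3 was the highest in each. SNAI2 (Slug) was at 0.451, 0.833 and 0.727 against 0.120, 0.688 and 0.473. TWIST1, a basic helix-loop-helix factor, was at 0.324, 0.78 and 0.416 against 0.143, 0.537 and 0.107. In SNAI2 and TWIST1 the groups overlapped as well.
ZEB1 and ZEB2 are zinc finger homeobox factors that repress E-cadherin and that the miR-200 family targets. The 4 probe sets of ZEB1 and 5 of ZEB2 lay between 0.0355 and 0.695 on the 6 arrays. The brightest of ZEB1 had 0.535, 0.233 and 0.643 in sensitive and 0.639, 0.613 and 0.0592 in resistant samples. The brightest of ZEB2 had 0.394, 0.560 and 0.370 against 0.541, 0.106 and 0.124. None of the 12 probe sets of the 5 factors separated the groups. Without the filter on dim probe sets none of them passed, and adjusted p values ran from 0.47 (TWIST1) to 0.98 (a ZEB2 probe set) in limma. Signals at this level were noisy on these arrays, with a median SD between replicates of 0.98 (sensitive) and 0.96 (resistant) on the log2 scale over 25765 probe sets of mean scaled signal from 0.1 to under 1, against 0.31 and 0.34 from 1 to under 4. A change of the factors smaller than this spread could not have been seen, and larger ones could be missed too. Without the filter, log2 fold changes of 1.32 at a ZEB1 probe set, -1.23 at TWIST1 and -1.17 at the brightest of ZEB2 did not pass. The smallest change that would have passed was not tested, and low RNA says nothing of protein levels.

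**Figure D3:**
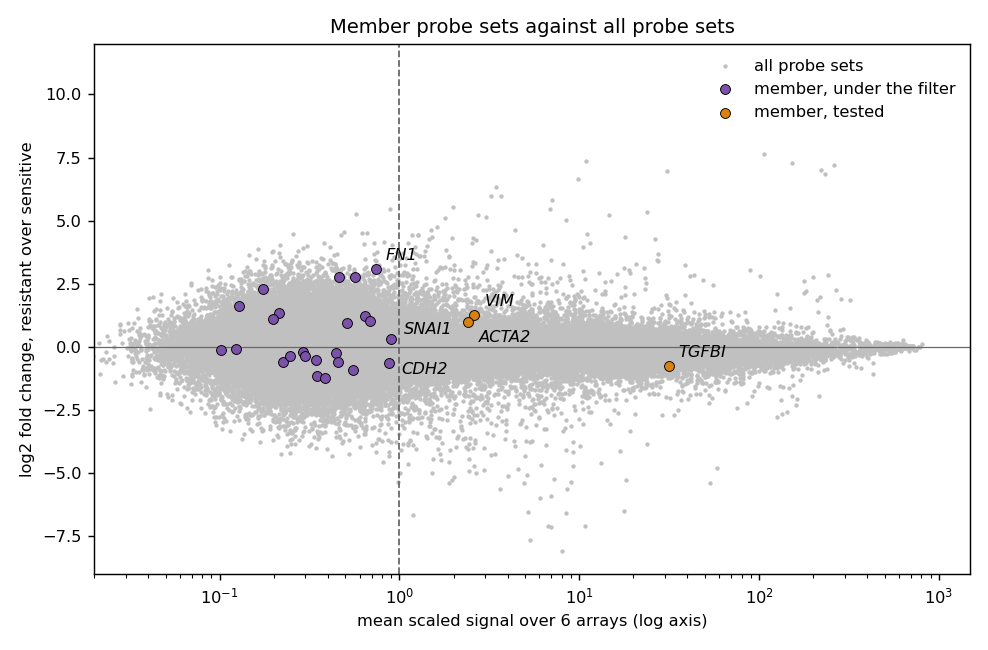
Mean scaled signal over the 6 arrays (log axis) and log2 fold change, resistant over sensitive, of all probe sets (grey) and of the 27 probe sets of the 10 genes, with the 3 tested ones in orange and those under the filter in purple. VIM, ACTA2 and TGFBI lie at 1.26, 0.97 and -0.76, and most of the purple points lie within the wide spread of dim probe sets.

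The cells carried RNA of colon epithelium in both groups. The array medians ran from 13.3 to 16.9. Of 11 colon epithelial markers, 8 were tested. CDX1 and CDX2 were under 1 on all arrays at their brightest probe set, and GPA33 had a mean under 1. EPCAM was at 322 ± 21.2 and 319 ± 2.54 (SD, n = 3 each), and did not pass. Of the 8 tested, 5 were lower (KRT20, KRT8, VIL1, LGALS4 and CEACAM5), 1 was higher (CDH17) and 2 did not pass, with a median log2 fold change of -0.54. The scaled signals of the 11 markers summed to 1862 to 2046 in sensitive and 1462 to 1610 in resistant samples, with no overlap. This sum is weighted to its brightest genes, KRT18, EPCAM and KRT8. Of 15 markers of fibroblasts, muscle, endothelium and leukocytes, 6 were under 1 on all arrays, among them the fibroblast receptors PDGFRA and PDGFRB, and none was listed at 0. The 15 summed to 10.9 to 13.1 in sensitive and 9.62 to 13.8 in resistant samples, overlapping between groups. At 6 of the 15 the groups did not overlap. Only 4 of the 15 were tested, so the 42.3% without overlap among all tested probe sets does not match this count. Of probe sets with a mean under 1, 6.34% had every resistant array above every sensitive array. Of the 6 markers, LUM and CD14 were lower and FAP, DES, PECAM1 and VWF higher in resistant samples, and LUM, DES and VWF were not tested. LUM, a fibroblast proteoglycan, was at 1.51, 1.57 and 1.81 in sensitive and 0.278, 0.0250 and 0.0769 in resistant samples. DES, a muscle marker, was at 0.0845, 1.07 and 0.649 against 1.69, 1.15 and 1.08. FAP, a protease of activated fibroblasts, was at 0.838, 0.847 and 0.766 against 1.04, 1.98 and 2.91 (log2 fold change 1.15, adjusted p = 0.056 from limma). The one other-cell marker called was CD14, a monocyte receptor, which was lower (adjusted p = 0.0041 from limma), from 3.05, 2.63 and 1.56 to 0.0902, 0.506 and 0.793. All its resistant signals lay under the array median, so the size of the fall has no firm value. In bulk RNA of this kind, fewer cells of a type and less RNA per cell cannot be told apart, and the part of any such cells in the rises of VIM and ACTA2 was not tested.

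Other genes of the pathway were read at their brightest probe set, in lists chosen with earlier results of these data known, so that their counts are a description. Of 15 genes of TGF-beta ligands, receptors and SMAD proteins, 2 were higher, 3 were lower and 10 did not pass, with a median log2 fold change of -0.16 against -0.12 for all tested probe sets. Of all tested probe sets, 9.52% were higher and 19.5% lower, so the counts of this list were near that background. TGFB1, the main ligand, went from 6.31, 5.55 and 3.19 to 15.2, 11.5 and 14.3 (log2 fold change 1.50, standard error 0.22, adjusted p = 1.9e-05 from limma), and no array overlapped between the groups. With the mean of both its probe sets TGFB1 was at 0.71 (adjusted p = 0.27 from limma), where the other probe set had a mean scaled signal under 1. LTBP1, which holds latent TGF-beta in the matrix, was at 0.98, but at 0.55 without sensitive replicate 3 (adjusted p = 0.14) and at 0.88 without resistant replicate 1 (adjusted p = 0.082 from limma). The signal transducer SMAD3 was lower at all 4 tested probe sets, with log2 fold changes of -0.75 at the brightest and of -1.95 to -1.004 at the others. ENG (endoglin), an accessory receptor, went from 5.03, 5.15 and 3.04 to 0.376, 0.494 and 1.17 at its brighter probe set and was called lower at both. The size rests on dim resistant signals, with -2.84 at the brighter probe set and -1.69 when 1 was added to the signal before the log, and a two-group test with equal variances ended the call (adjusted p = 0.056). The inhibitor SMAD7 was at -0.53, a call that ended without any 1 of 5 of the 6 arrays (adjusted p from 0.055 to 0.14 from limma), all but resistant replicate 1. The receptors TGFBR1 and TGFBR2 did not pass at 0.25 and -0.16. The ligand TGFB2 did not pass at its brightest probe set (0.44). At another it was called higher (0.97, adjusted p = 0.0030 from limma), and at a further one it did not pass (0.11). Without resistant replicate 1 the list had 1 higher and 5 lower genes, and after quantile normalization 5 higher, with TGFB2, TGFBR1 and SKI added.

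Of 19 other factors of the epithelial and mesenchymal states, 11 were tested, with 4 lower, none higher and 7 that did not pass, at a median log2 fold change of -0.34. Of all tested probe sets, 19.5% were lower. Where the mean scaled signal was 4 or more, as for the 4 lower genes, that share was 22.3% to 31.7% by level. Most of the tested genes of this list are factors of epithelial cells, and so were the 4. GRHL1 (0.11), GRHL3 (0.27), OVOL2 (-0.03), OVOL1 (-0.34) and ELF3 (-0.38), also epithelial factors, did not pass. GRHL2, which keeps the epithelial state, went from 17.8, 18.5 and 17.03 to 4.43, 4.72 and 4.05 (log2 fold change -2.02, standard error 0.17, adjusted p = 6.6e-09 from limma). ESRP1, which sets epithelial splicing, was at -0.80, KLF4 at -0.64 and EHF at -0.53. Without resistant replicate 1 the number of lower genes was 7, with TCF3, OVOL1 and ELF3 added. TWIST2, TCF4, FOXC2, GSC and KLF8, factors tied to the mesenchymal state, were under 1 on all arrays at their brightest probe set. SNAI3, the remaining member of the SNAI family, was not tested and was chosen after its values were seen, with 0.134, 0.193 and 0.0974 in sensitive and 1.90, 0.931 and 1.08 in resistant samples (adjusted p = 0.010 from limma without the filter).

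Of 30 other mesenchymal and matrix genes, 17 were tested, with 7 higher, 2 lower and 8 that did not pass, and the median log2 fold change was 0.17. Of all tested probe sets, 9.52% were higher and 19.5% lower. The 7 include CALD1 and COL1A1, described below, and the list was chosen with earlier results known, so the count is a description. The caveola protein CAV1 (3.44) and the calcium-binding S100A4 (1.88) rose with no overlap of groups. The actin-binding CALD1 went from 1.49, 0.32 and 0.922 to 30.2, 26.2 and 28.6, and the collagen COL1A1 from 0.465, 0.867 and 0.89 to 14.6, 9.46 and 11.4, both called higher. Their sensitive signals lay at or under the array median on most arrays, so these probe sets passed the filter through the resistant group and the sizes of the rises (5.22 and 4.03 as fitted) have no firm value. When each gene's probe sets were averaged the log2 fold changes were 2.43 and 1.62. The other tested probe sets of COL1A1 lay at 1.54, 0.15 and 0.07, and the last pair did not pass. TAGLN, a smooth muscle protein that often accompanies ACTA2, was lower at -2.40, as was CCN2, a matrix-associated growth factor, at -2.49. TAGLN had another probe set at -3.50 and a further one at 1.61 that did not pass (adjusted p = 0.051 from limma). The collagen COL3A1, SPARC, POSTN and LOX were under 1 on all arrays at their brightest probe set.
Of 28 epithelial adhesion and keratin genes, all tested, 9 were lower, 2 were higher and 17 did not pass, with a median of -0.22. All 28 had a mean scaled signal of at least 4, and of all tested probe sets 22.3% were lower from 4 to under 16, 31.7% from 16 to under 64 and 29.4% at 64 or more, so the count of lower genes over the whole list was near that background. CDH1 (E-cadherin) went from 175, 168 and 168 to 70.0, 47.2 and 50.8 (log2 fold change -1.63, standard error 0.13, adjusted p = 4.2e-09 from limma), and its other probe set was at -2.36. The study itself examined CDH1, CAV1 and S100A4 in these cells, so their directions are not independent evidence. Its RT-PCR of the 3 RNAs gave the same directions. By PCR of genomic DNA it also reported a lower copy number of CDH1 in the resistant cells and called the gene clearly lost. The copy number it gave was a fraction of the sensitive level, not an absence of the gene. The part of this gene loss in the fall of CDH1 RNA was not tested. CLDN1 (-0.81), KRT8 (-0.77) and KRT20 (-0.60) were among the other lower genes. The membrane mucin MUC1 (2.73) and the vesicle protein RAB25 (0.55) were higher. EPCAM at -0.01, with a 95% interval of -0.19 to 0.17, did not pass. Without sensitive replicate 1 the number of lower genes was 6, since CLDN7, ST14 and MAL2 dropped out.

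**Figure D4:**
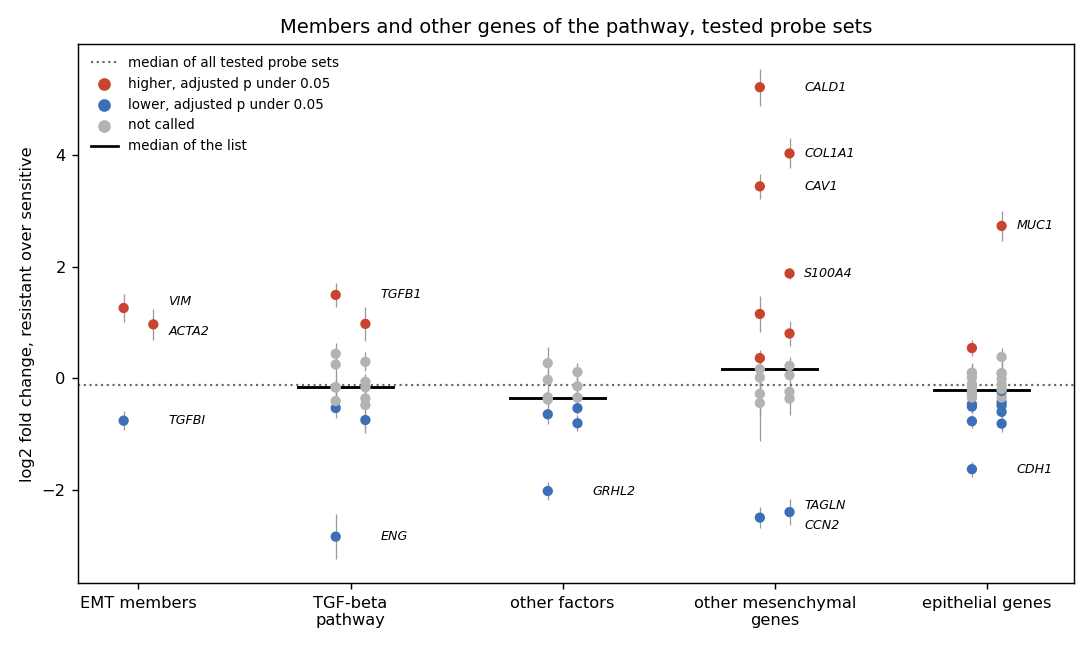
Log2 fold change, resistant over sensitive, bars giving limma standard errors, of the tested genes of the 10 (first column) and of the 4 lists at their brightest probe set, red for higher and blue for lower at an adjusted p under 0.05 and grey for not called. Black lines are list medians, from -0.34 to 0.17, and the dotted line is the median of all tested probe sets at -0.12.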

How the data were processed

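The values deposited by the authors are MAS5 signals, on a linear intensity scale, of 6 one-colour arrays. For MAS5, no version is stated in the sources used. Of 54675 probe sets, 62 controls were left out. By the platform annotation, 41091 of the rest name 1 gene, 1801 name several (none of the 10 genes among them) and 11721 name none, with symbols updated through RefSeq of GRCh38.p14 (41037 matched). Signals were divided by the median of the array, as in the first step of the study's methods, set to at least 0.01 and taken as log2. Only probe sets whose scaled signal averaged 1 or more over the 6 arrays entered the fit (lmFit, then eBayes with trend; limma 3.58.1 under R 4.3.3). A probe set was called at an adjusted p under 0.05. Figures were drawn with matplotlib 3.10.9. Standard errors borrow from other probe sets, and the number of arrays limits precision.

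In simulated data of 26833 probe sets for this comparison, 50.0% of 50 changed 2-fold were recovered, 78.0% of 50 changed 3-fold, and 3 unchanged ones were called. Recovery was 84% both for 50 changed 4-fold and for 50 changed 8-fold. The noise was normal, with the same spread in both groups. Far fewer probe sets were changed there than the 29.0% called in the data, so these rates hold for the simulated setting only. The text names all 10 genes and, of each list, CDH1 and up to 6 called genes with the largest change and no overlap of groups. The genes and lists were chosen with earlier results of these data known. Alternatives covered scaling, low signals, the filter, the test, a replicate block, each array left out and the mean of a gene's probe sets. No dates or batches were used here.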

Additional observations from a re-analysis of the deposited data

How the results depend on the processing

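The directions of the 24 named changes did not reverse under any of the 17 alternatives tried for each, but most alternatives could not have reversed them. The groups of these genes did not overlap, so leaving out an array or treating low signals otherwise kept the sign. Another filter, test or a replicate block left the fold change itself as it was. Only the other scalings and the mean of a gene's probe sets could have reversed a direction. Of 408 values, 361 kept their side of the threshold and 47 lost the call, 21 with unequal variances, 11 with equal variances and 15 elsewhere. With no filter on dim probe sets, 5 probe sets of the 10 genes were higher, 1 TGF-beta gene was higher and 1 other factor (SNAI3) was higher. Equal variances left 1 of the 10 genes higher and 0 lower, and unequal variances left 0 and 0. Over all probe sets, 4189 were higher after quantile normalization and 3878 with the median of tested probe sets as scale. Equal variances gave 826 higher and 1879 lower, and unequal variances 81 and 136. Of the TGF-beta genes, 5 were higher under either scaling, 0 were higher and 1 lower under equal variances, 0 and 0 under unequal ones, and 0 were higher when a gene's probe sets were averaged. Of the other factors, 2 and 1 were lower with equal and unequal variances. Of the other mesenchymal genes, 4 were higher under equal variances, 4 were higher when probe sets were averaged, and 1 higher and 1 lower with unequal variances. Of the epithelial genes, 1 was higher and 3 were lower under equal variances, against 0 and 0 under unequal ones. The cause of these differences was not tested.

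Leaving out 1 array in turn gave 1 to 2 higher and 1 to 1 lower among the 10 genes, 1917 to 2513 higher and 3774 to 6498 lower over all probe sets, 1 to 2 higher and 2 to 5 lower TGF-beta genes, 0 to 0 higher and 4 to 7 lower other factors, 5 to 7 higher and 2 to 2 lower other mesenchymal genes, and 2 to 3 higher and 6 to 10 lower epithelial genes.

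Deviations of samples with the same replicate number correlated at r = 0.141, 0.00718 and 0.0791 across probe sets. Pairs with different numbers lay between -0.114 and 0.0330. The main fit took the numbers as names, and a shared effect of replicate number was not tested beyond the replicate block. With the replicate block, 3076 probe sets were higher and 6400 lower, the 10 genes still had 2 higher and 1 lower, and 5 TGF-beta genes were lower, with SMAD2 and SMAD6 added. Array signal limits what can be said of ZEB1, ZEB2, SNAI2 and TWIST1.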
